A study of Mus musculus with 12 samples.

Results

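The liver clock was followed through 10 genes. Arntl, Clock and Npas2 form its positive limb, Per1, Per2, Per3, Cry1 and Cry2 encode its repressors, and Dbp and Tef encode transcription factors of its output. They were chosen by name, as all probe sets that the platform annotation links to exactly 1 of these symbols. Where a gene had several, the brightest over the 12 arrays was taken as its main probe set. The 10 genes, of 18193 measured, held 25 of the 45037 probe sets tested. BMAL1, the protein of Arntl, pairs with CLOCK or NPAS2, binds DNA elements called E-boxes and activates the Per and Cry genes, the nuclear receptor genes Nr1d1 and Nr1d2, and Dbp and Tef. PER and CRY proteins shut this activator down, and the products of Nr1d1 and Nr1d2 repress Arntl where ROR receptors activate it. In liver the mRNA of Arntl therefore peaks at roughly the opposite time of day from those of Per3, Dbp and Tef, while Cry1 peaks between the limbs. DBP and TEF bind D-boxes in genes of detoxification and lipid metabolism.

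The 4 groups were wild-type and Atf6a-/- mice given vehicle or TM, with 3 animals and 3 arrays in each. TM is tunicamycin, which inhibits N-linked glycosylation and so causes stress of the endoplasmic reticulum (ER), and Atf6a-/- mice lack in all cells the ER membrane protein ATF6α, whose cleaved part is a transcription factor. TM was given into the peritoneum at 1 mg/kg and the vehicle was 150 mM dextrose. RNA came from whole liver 34 h later, by the titles and the protocol, although another label field names an earlier time. Ages and genders varied and are not given per animal. Per the study's methods the mice were fasted for some hours and sacrificed in the daytime. The hour of each sacrifice is not given in the sources used here, and its part in the levels of these cycling genes was not tested. Values are log2 levels, so that a difference of 1 is 2-fold. Differences are given ± SE from limma, in which all 12 arrays shared 1 estimate of the spread, and a probe set was called changed at an adjusted p under 0.05 over all 45037 with a difference of over 1.5-fold.

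The arrays differed in ways that bear on all genes. Atf6, the targeted gene, was at 8.54, 8.42 and 8.49 in wild-type and at 6.88, 6.85 and 6.60 in Atf6a-/- livers after vehicle. After TM it was at 9.30, 9.72 and 9.49 in wild-type and at 9.60, 9.81 and 9.23 in Atf6a-/- livers, so that this probe set did not separate the genotypes there. The mean of the 3 Atf6 probe sets was 0.67 higher in Atf6a-/- than in wild-type livers after TM (adjusted p = 6.80e-04), against the direction that a loss of the gene would give. Where these probe sets lie relative to the disrupted part of the gene is not given in the sources used here, so that the mRNA level does not check the genotype of the TM groups, and Atf6a-/- names the livers so labelled throughout. On the first principal component, with 68.3% of the variance, the wild-type TM animals lay at -12.9, 29.5 and -11.9, and animal 2 stood apart. Spike-in signal was 8.43 to 8.50 in Atf6a-/- TM livers, 8.54 to 8.86 in wild-type TM livers and 8.81 to 9.21 after vehicle. The 3' minus 5' signal of the actin control was 0.88 to 1.00 in Atf6a-/- TM livers and 1.00 to 1.32 in the other groups. Xist was at 12.19 to 12.39 in animal 1 of both vehicle groups and of the Atf6a-/- TM group, and at 5.37 to 6.68 in all other livers. The wild-type TM group alone thus held no liver with high Xist, and comparisons with it were unbalanced in this respect. Alb, the hepatocyte gene for albumin, was at 14.15 to 14.43 in Atf6a-/- TM livers and at 14.55 to 14.83 in all others. The part of these array differences in the results was not tested, apart from the alternatives named below.

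The Atf6a-/- response to TM held the most calls among the clock genes. There, by the main probe sets, Arntl, Clock and Cry1 rose and Per2, Per3, Dbp and Tef fell. These were 3 genes upward and 4 downward of 10 against 15.2% and 12.8% of all genes. Between genotypes after TM, Arntl, Clock and Cry1 were higher and Per3, Dbp and Tef lower in Atf6a-/- livers, 3 and 3 of 10 against a background of 11.3% and 8.45%. Of these 6 genes the methods' t-test with adjustment passed Dbp alone, and without adjustment it passed all but Arntl. In the wild-type response limma called 0 of 10 in either direction, against 3.45% of all genes upward and 3.86% downward. At an unadjusted p under 0.05 it passed 1 upward (Cry1) and 1 downward (Dbp), and the methods' t-test passed 0 with or without adjustment. Between genotypes after vehicle limma called 0 of 10, also at an unadjusted p under 0.05, as did the methods' t-test, where 0% of all genes were higher and 0.0055% lower, that is Atf6 alone. The interaction, which tests whether the TM response differed between genotypes, was passed by 0 genes upward and 3 downward (Per3, Dbp and Tef), against 7.56% and 6.69% of all genes. At an unadjusted p under 0.05 Arntl, Clock and Cry1 passed upward as well. The median difference over all genes was between -0.02 and 0.01 in every comparison.

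**Figure D1:**
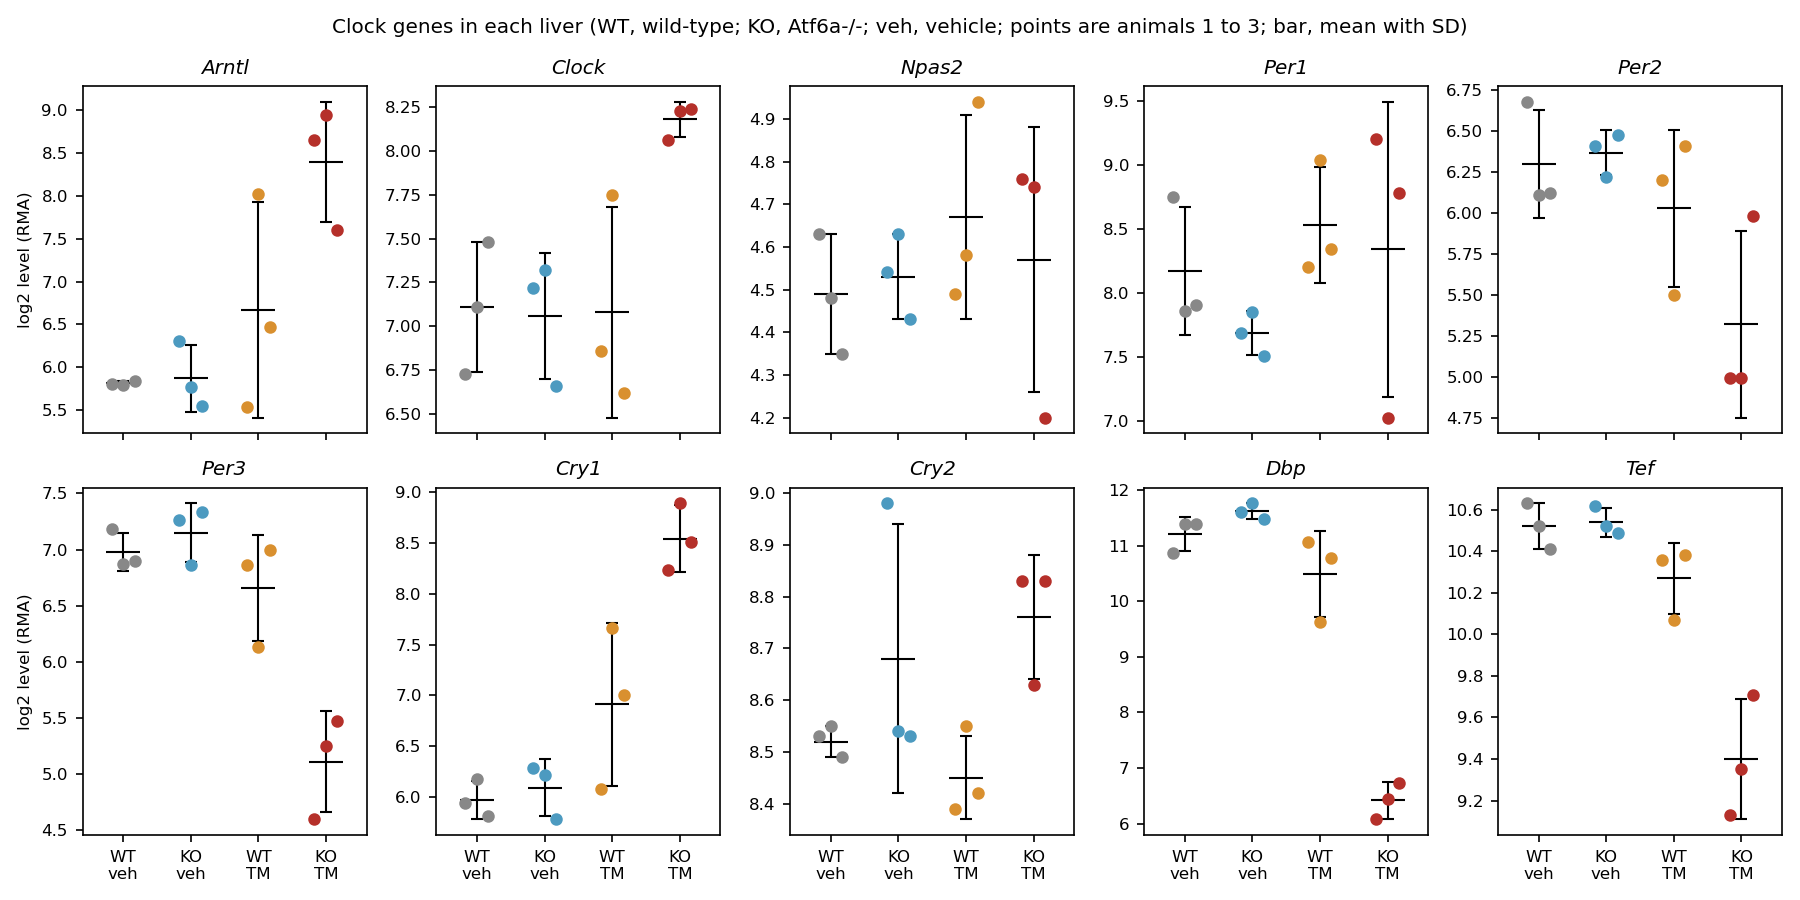
Log2 level (vertical axis, own scale for each gene) of the main probe sets of the 10 clock genes, with a point for each of animals 1 to 3 in a group and a bar for their mean and SD. In Atf6a-/- livers after TM (KO TM), Arntl, Clock and Cry1 lay high and Per3, Dbp and Tef low, with Dbp at 6.08 to 6.74 against 9.62 or more in every other liver.

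Arntl encodes BMAL1, without which the clock stops in mice. It was at 5.80, 5.79 and 5.84 in wild-type and at 6.31, 5.77 and 5.54 in Atf6a-/- livers after vehicle. After TM it was at 5.53, 8.02 and 6.47 in wild-type and at 8.65, 8.94 and 7.60 in Atf6a-/- livers. The wild-type TM group was thus spread from the vehicle level to above the lowest Atf6a-/- TM animal. Arntl rose 5.76-fold in the Atf6a-/- response (2.53 ± 0.51, adjusted p = 0.00228), and the groups did not overlap. The wild-type response was 0.86 ± 0.51 (adjusted p = 0.434, 95% interval -0.25 to 1.97). After TM, Arntl was 1.73 ± 0.51 higher in Atf6a-/- than in wild-type livers (adjusted p = 0.0333), with overlap. That call was lost without wild-type TM animal 1 or 3 or Atf6a-/- TM animal 1 or 2 (adjusted p = 0.123, 0.112, 0.104 and 0.123). It was lost as well with Xist as a covariate (0.0602) and in a limma fit of the compared groups only (0.129). The interaction did not pass (1.67 ± 0.72, adjusted p = 0.20), except without wild-type TM animal 2 (2.34, adjusted p = 0.00772). A second, dimmer Arntl probe set stayed between 4.50 and 5.08 in all livers and was called in no comparison. Averaged over both, Arntl rose by 1.26 in the Atf6a-/- response (adjusted p = 0.00167) and was 0.96 higher in Atf6a-/- livers after TM (adjusted p = 0.0133).

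Clock, whose protein is the partner of BMAL1 and varies little over the day in liver, was at 6.73, 7.11 and 7.48 in wild-type and at 7.22, 7.32 and 6.66 in Atf6a-/- livers after vehicle. After TM it was at 6.86, 7.75 and 6.62 in wild-type and at 8.06, 8.23 and 8.24 in Atf6a-/- livers. All 3 Atf6a-/- TM animals were above all other livers. Clock rose by 1.11 ± 0.28 in the Atf6a-/- response (adjusted p = 0.00906) and was 1.10 ± 0.28 higher than in wild-type livers after TM (adjusted p = 0.0144). The latter was lost without wild-type TM animal 1 or 3 (adjusted p = 0.0563 and 0.0735). The 4 Clock probe sets were not alike, and those other than the main one differed by 0.34, 0.22 and 0.20 in the Atf6a-/- response and were not called. One of them fell in the wild-type response (-0.68 ± 0.18, adjusted p = 0.0448), from 6.74, 6.88 and 6.61 to 6.54, 5.87 and 5.79, and was 1.17 ± 0.18 higher in Atf6a-/- livers after TM (adjusted p = 6.39e-04). It passed the interaction (1.02 ± 0.26, adjusted p = 0.0242), as did another Clock probe set (0.60 ± 0.15, adjusted p = 0.0266), while the main one did not (1.15 ± 0.39, adjusted p = 0.0941). Averaged over its 4 probe sets, Clock differed by 0.47 in the Atf6a-/- response, below the fold minimum, and passed the interaction (0.76, adjusted p = 0.0102), as did the main probe set without wild-type TM animal 2 (1.49, adjusted p = 0.00587) and with arrays scaled to the spike-ins (1.32, adjusted p = 0.0345).

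Npas2 encodes a relative of CLOCK that can take its place. Its main probe set was dim, between 4.20 and 4.94 in all livers where the median of an array was 4.64 to 4.71, and no comparison was called. Its second probe set was at 5.36, 4.98 and 3.57 in Atf6a-/- livers after TM and between 3.39 and 3.66 in all other livers. Animals 1 and 2 were thus high and animal 3 was at the level of the other groups. This probe set was 1.07 ± 0.33 higher in Atf6a-/- TM livers than after vehicle (adjusted p = 0.0291) and than in wild-type TM livers (adjusted p = 0.0405). No fold is given because the lower groups were below the array median.

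The Per genes encode the proteins that carry the repressor complex, and Per1 and Per2 are also induced by outside signals. Per1 was at 8.75, 7.86 and 7.91 in wild-type and at 7.69, 7.85 and 7.51 in Atf6a-/- livers after vehicle. TM livers were at 8.20, 9.04 and 8.34 in wild-type and at 9.20, 7.03 and 8.78 in Atf6a-/- livers. The last group held both the highest and the lowest Per1 level of all 12 livers. No Per1 comparison was called, and the Atf6a-/- response was 0.65 ± 0.46 (adjusted p = 0.356, 95% interval -0.35 to 1.65). Without Atf6a-/- TM animal 2 it was 1.30 (adjusted p = 0.00711), and with arrays scaled to the spike-ins it was 1.14 (adjusted p = 0.0325).

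Per2 was at 6.68, 6.11 and 6.12 in wild-type and at 6.41, 6.22 and 6.48 in Atf6a-/- livers after vehicle. Wild-type TM livers were at 6.20, 5.50 and 6.41, and Atf6a-/- TM livers at 4.99, 4.99 and 5.98. Animal 3 of the Atf6a-/- TM group stayed near the other groups. Per2 fell 2.07-fold in the Atf6a-/- response (-1.05 ± 0.29, adjusted p = 0.0155) and differed by -0.72 ± 0.29 between genotypes after TM (adjusted p = 0.12). The fall was lost without Atf6a-/- vehicle animal 3 or Atf6a-/- TM animal 1 or 2 (adjusted p = 0.0539, 0.0678 and 0.0661) and with arrays scaled to the spike-ins (-0.56, adjusted p = 0.0884), and it was below the fold minimum when averaged over the 3 Per2 probe sets (-0.51). The other 2 Per2 probe sets were called in no comparison.

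Per3, which the clock can spare, had the clearest change among the Per genes. Per3 was at 7.18, 6.87 and 6.90 in wild-type and at 7.26, 6.86 and 7.33 in Atf6a-/- livers after vehicle, and at 6.86, 6.13 and 7.00 in wild-type livers after TM. In Atf6a-/- livers after TM it was at 4.60, 5.25 and 5.47, below all other livers. Per3 fell 4.12-fold in the Atf6a-/- response (-2.04 ± 0.25, adjusted p = 5.91e-05), and after TM it was 2.94-fold lower in Atf6a-/- than in wild-type livers (-1.56 ± 0.25, adjusted p = 9.46e-04). The wild-type response was -0.32 ± 0.25 (adjusted p = 0.596), and the interaction of -1.72 ± 0.36 passed (adjusted p = 0.0092). Of the 5 other Per3 probe sets, 3 fell in the Atf6a-/- response, by 0.75, 1.14 and 1.17 on the log2 scale. The last of these also passed between genotypes after TM (-0.76 ± 0.17, adjusted p = 0.00826) and in the interaction (-0.85 ± 0.25, adjusted p = 0.0465), from levels near or below the array median. Averaged over its 6 probe sets, Per3 fell by 0.93 in the Atf6a-/- response (adjusted p = 4.83e-05) and differed by -0.59 between genotypes after TM (adjusted p = 0.00206) and -0.66 in the interaction (adjusted p = 0.0149), with all 3 calls kept.

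Cry1 and Cry2 encode the cryptochromes, the part of the repressor complex that blocks CLOCK and BMAL1 directly. Cry1 was at 5.94, 6.18 and 5.81 in wild-type and at 6.28, 6.22 and 5.78 in Atf6a-/- livers after vehicle. TM livers were at 6.08, 7.66 and 7.00 in wild-type and at 8.23, 8.89 and 8.51 in Atf6a-/- livers. The Atf6a-/- TM animals were above all others, and wild-type TM animals 2 and 3 were above all vehicle animals. Cry1 rose 5.45-fold in the Atf6a-/- response (2.45 ± 0.32, adjusted p = 8.96e-05) and was 3.09-fold higher in Atf6a-/- than in wild-type livers after TM (1.63 ± 0.32, adjusted p = 0.00327). The wild-type response did not pass (0.94 ± 0.32, adjusted p = 0.118), except without wild-type TM animal 1 (1.36, adjusted p = 0.00677) and with arrays scaled to the spike-ins (1.26, adjusted p = 0.0263). The interaction of 1.51 ± 0.45 had an adjusted p of 0.0556 and lay on either side of the threshold under the alternatives. Cry2 kept between 8.39 and 8.98 in all livers and was called in no comparison. Its Atf6a-/- response of 0.08 ± 0.12 had a 95% interval of -0.19 to 0.35.

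Dbp encodes a D-box activator that BMAL1 and CLOCK drive through E-boxes. It was at 10.86, 11.39 and 11.39 in wild-type and at 11.61, 11.76 and 11.48 in Atf6a-/- livers after vehicle. TM livers were at 11.07, 9.62 and 10.77 in wild-type and at 6.08, 6.44 and 6.74 in Atf6a-/- livers. The highest Atf6a-/- TM animal was thus far below the lowest of all other livers. Dbp fell 36.8-fold in the Atf6a-/- response (-5.20 ± 0.31, adjusted p = 2.33e-07), and after TM it was 16.8-fold lower in Atf6a-/- than in wild-type livers (-4.07 ± 0.31, adjusted p = 4.78e-06). The wild-type response was -0.73 ± 0.31 (adjusted p = 0.236), with animal 2 lowest, and the interaction of -4.47 ± 0.44 passed (adjusted p = 9.74e-05). The second Dbp probe set was at 5.72, 6.04 and 6.06 in Atf6a-/- TM livers and between 8.94 and 10.78 in all others, and fell by 4.80 ± 0.27 in the Atf6a-/- response (adjusted p = 1.27e-07). The 3 calls of the main Dbp probe set held under every alternative in which they were recomputed.

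Tef encodes a close relative of DBP. It was at 10.63, 10.52 and 10.41 in wild-type and at 10.62, 10.52 and 10.49 in Atf6a-/- livers after vehicle. The TM groups were at 10.36, 10.07 and 10.38 in wild-type and at 9.13, 9.35 and 9.71 in Atf6a-/- livers. No Atf6a-/- TM animal overlapped with another group. Tef fell 2.22-fold in the Atf6a-/- response (-1.15 ± 0.14, adjusted p = 5.64e-05), was 1.83-fold lower in Atf6a-/- than in wild-type livers after TM (-0.87 ± 0.14, adjusted p = 9.17e-04) and passed the interaction (-0.90 ± 0.20, adjusted p = 0.0134). Of the 2 other Tef probe sets, 1 fell in the Atf6a-/- response (-0.64 ± 0.21, adjusted p = 0.043). Averaged over the 3, the interaction of -0.61 did not pass (adjusted p = 0.0609) and the difference after TM of -0.58 was just below the fold minimum. With arrays scaled to the spike-ins the interaction did not pass either (-0.73, adjusted p = 0.0921).

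**Figure D2:**
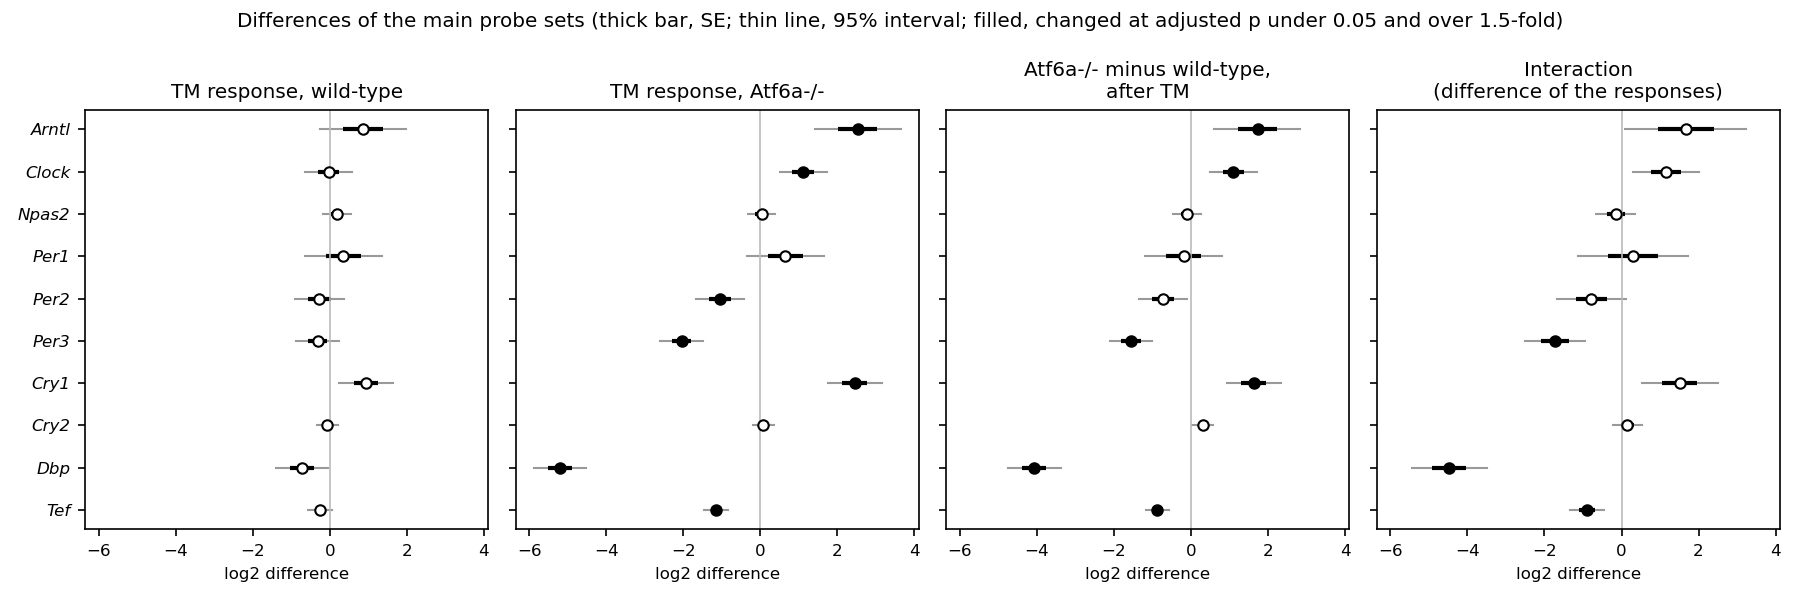
Log2 difference (horizontal axis) of the main probe sets in 4 comparisons, with SE as a thick bar and the 95% interval as a thin line, and filled points for genes called changed. In the wild-type response no point is filled, while the Atf6a-/- response runs from -5.20 for Dbp to 2.53 for Arntl.

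Set side by side by their main probe sets, Arntl and Clock moved opposite to Per2, Per3, Dbp and Tef in Atf6a-/- livers. Npas2, Per1 and Cry2 were called in neither direction by these probe sets. The second Npas2 probe set was called upward there (1.07 ± 0.33), and Clock averaged over its probe sets was below the fold minimum (0.47). To give 1 value per animal, each gene was centred on its mean over the 12 arrays, and the mean of Per1, Per2, Per3, Cry2, Dbp and Tef was taken from that of Arntl, Clock and Npas2. This phase index has no test, since the genes were grouped with earlier results known. As all livers were taken at 1 time after the injection, it does not measure the phase of a cycle. Its largest differences in the Atf6a-/- response were those of Dbp (-5.20) and Arntl (2.53), while Per1, averaged with Dbp, differed by 0.65 upward. The index was -1.02, -0.73 and -0.62 in the wild-type vehicle group and -0.71, -0.69 and -1.07 in the Atf6a-/- vehicle group. In the wild-type TM group it was -0.86, 0.66 and -0.52, and in the Atf6a-/- TM group 2.05, 2.39 and 1.12. Animal 1 of the wild-type TM group was thus among the vehicle animals, animal 3 just above them all, and animal 2 between them and the Atf6a-/- TM group. Group means ± SD were -0.79 ± 0.21, -0.82 ± 0.21, -0.24 ± 0.80 and 1.85 ± 0.65 in the same order (n = 3 each). The 7 genes called in the Atf6a-/- response were read by their main probe sets. In each, wild-type TM animal 2 was the animal of its group nearest to the Atf6a-/- TM mean. That held for the second Dbp probe set too, but not for all others. In a further Clock probe set, at 6.54, 5.87 and 5.79, animal 1 was nearest to the Atf6a-/- TM mean of 7.24. Animal 2 was also the wild-type TM animal that stood apart on the first principal component. Without it, the genotypes after TM differed in 3 genes upward and 4 downward, and the interaction passed 3 and 3. By main probe sets, animal 3 of the Atf6a-/- TM group was the nearest to the other groups in Arntl, Per2, Per3, Dbp and Tef. Without it the Atf6a-/- response was again 3 genes upward and 4 downward.

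**Figure D3:**
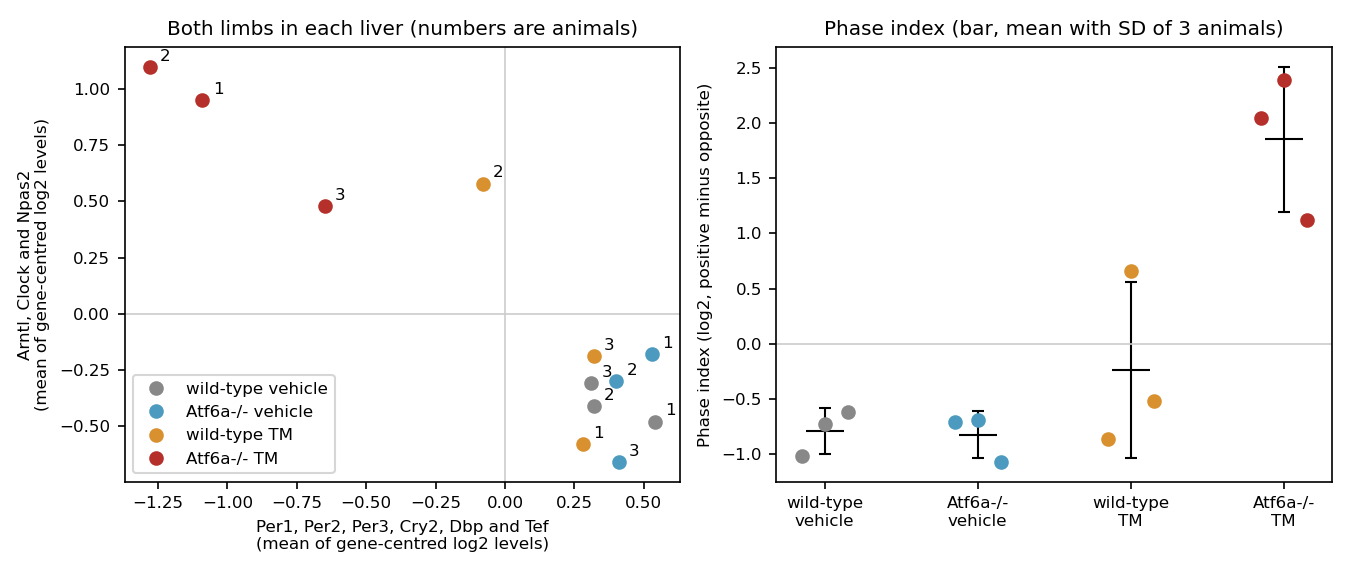
Left, the mean gene-centred log2 level of Arntl, Clock and Npas2 against that of Per1, Per2, Per3, Cry2, Dbp and Tef, with a numbered point for each animal. Right, the phase index of each animal in the 4 groups with the group mean and SD, which was 1.12 to 2.39 in Atf6a-/- TM livers and 0.66 in wild-type TM animal 2, and below 0 in all other livers.

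The promoters of these genes were searched for the elements through which the clock acts on itself, in RefSeq windows of mouse build GRCm38.p6 from 250 bases before to 50 after each start of transcription. A window was held for 9 of the 10 genes (14 windows, Per2 being without an entry), and 7 genes had at least 1 match. The letters searched on both strands were CACGTG for the E-box, CACGTT for the related E'-box, TTATGTAA or TTATGCAA for the D-box, AGGTCA for the half-site of nuclear receptors such as ROR and REV-ERB, TGACGTCA for the CRE of cAMP signalling, and the ER stress response element by its name. These were in 7.15%, 4.68%, 1.66%, 16.26%, 1.79% and 0.12% of 32851 windows of the same length. The windows below are printed because their genes changed, or, for Per1, because its window has the most matches. Capitals mark the matches, and no match overlaps another in them.
Per3, chr4:151044616-151044915, minus strand: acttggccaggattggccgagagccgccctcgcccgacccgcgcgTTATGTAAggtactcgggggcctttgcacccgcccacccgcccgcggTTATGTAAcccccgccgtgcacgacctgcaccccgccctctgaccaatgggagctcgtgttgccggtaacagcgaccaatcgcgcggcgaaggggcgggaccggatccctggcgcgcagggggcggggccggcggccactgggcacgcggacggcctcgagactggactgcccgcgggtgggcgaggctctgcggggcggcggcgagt
Tef, chr15:81802423-81802722, plus strand: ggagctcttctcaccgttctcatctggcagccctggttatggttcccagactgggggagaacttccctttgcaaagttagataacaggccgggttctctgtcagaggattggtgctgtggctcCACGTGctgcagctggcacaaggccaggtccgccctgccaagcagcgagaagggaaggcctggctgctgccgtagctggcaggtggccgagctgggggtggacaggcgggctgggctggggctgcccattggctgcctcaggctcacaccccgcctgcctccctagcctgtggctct
Cry1, chr10:85185005-85185304, minus strand: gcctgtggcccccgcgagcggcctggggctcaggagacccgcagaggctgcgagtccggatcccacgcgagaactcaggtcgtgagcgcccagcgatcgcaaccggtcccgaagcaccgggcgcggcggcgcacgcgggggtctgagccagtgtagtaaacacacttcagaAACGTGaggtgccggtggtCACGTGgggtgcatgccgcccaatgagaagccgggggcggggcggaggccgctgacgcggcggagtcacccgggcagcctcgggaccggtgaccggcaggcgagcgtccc
Per1, chr11:69098699-69098998, plus strand: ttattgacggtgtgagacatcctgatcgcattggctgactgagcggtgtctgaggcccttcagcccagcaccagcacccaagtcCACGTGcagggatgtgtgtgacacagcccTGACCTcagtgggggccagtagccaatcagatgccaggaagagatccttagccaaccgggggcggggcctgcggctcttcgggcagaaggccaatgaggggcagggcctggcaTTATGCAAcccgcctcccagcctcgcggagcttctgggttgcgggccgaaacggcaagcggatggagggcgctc
Arntl, chr7:113207261-113207560, plus strand: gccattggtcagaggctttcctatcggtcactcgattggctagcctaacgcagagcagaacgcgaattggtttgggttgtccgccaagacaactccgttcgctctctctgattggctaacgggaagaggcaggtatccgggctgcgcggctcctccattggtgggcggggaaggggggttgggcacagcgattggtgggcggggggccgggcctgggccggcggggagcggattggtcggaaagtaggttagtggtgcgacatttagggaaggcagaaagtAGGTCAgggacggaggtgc
With the first transcribed base as 1, the 2 D-boxes of Per3 begin at -205 and -158, and Per3 was among the genes that fell. Tef, which fell as well, has an E-box at -127 here and another at -138 of its second window. Cry1, which rose, has an E'-box at -79 (printed as AACGTG, its other strand) and an E-box at -60. Per1, called in no comparison, has an E-box at -166, a half-site at -137 and a D-box at -24. The E-box thus stood in windows of a gene that rose, of one that fell and of one called in neither. The half-site of Arntl lies at 32, after the start. Of the windows not printed, that of Cry2 has an E'-box at -166 and 1 of the 3 of Clock has a half-site at -119. In the windows of Dbp and Npas2 none of these letters was found, which says nothing of elements elsewhere in these genes. A match is a stretch of letters and not a shown site of binding.

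The receptors of the second loop act on Arntl through such half-sites. Of 5 listed, 4 were measured, and in the Atf6a-/- response Rora rose while Nr1d1 and Nr1d2 fell (median of the list -0.49). Here and in the lists that follow, the shares over all genes to set such counts against were 15.2% upward and 12.8% downward in the Atf6a-/- response and 3.45% and 3.86% in the wild-type response, with a median difference near 0. Rora, an activator of Arntl, was at 9.56, 9.33 and 9.42 in wild-type and at 9.32, 9.52 and 9.44 in Atf6a-/- livers after vehicle, and at 9.71, 9.62 and 9.69 in wild-type livers after TM. In Atf6a-/- livers after TM it was at 11.55, 11.63 and 11.18, above all other livers. It rose 4.07-fold there (2.03 ± 0.12, adjusted p = 2.13e-07) and passed the interaction (1.79 ± 0.17, adjusted p = 7.52e-05). Nr1d1 encodes REV-ERBα, a repressor of Arntl. In wild-type livers it was at 7.81, 7.91 and 7.98 after vehicle and at 7.41, 7.22 and 7.31 after TM. In Atf6a-/- livers it was at 8.23, 8.42 and 8.10 after vehicle and at 6.79, 7.64 and 7.32 after TM. Both TM groups lay below the vehicle groups and overlapped with each other. Nr1d1 fell by 1.00 ± 0.18 in the Atf6a-/- response (adjusted p = 8.79e-04), and the wild-type response of -0.59 ± 0.18 did not pass (adjusted p = 0.0741). It passed under 6 of 26 alternatives, which were a fit of the compared groups only (adjusted p = 0.0201), Xist as a covariate (0.0359), scaling to Btf3 and Ppia (0.0243), the methods' t-test without adjustment and leaving out Atf6a-/- TM animal 1 or 2 (0.0131 and 0.0317). Between genotypes after TM it differed by -0.06 ± 0.18 (adjusted p = 0.891). Nr1d2, for the related REV-ERBβ, fell by 0.83 ± 0.13 in Atf6a-/- livers (adjusted p = 4.70e-04), with an interaction of -0.74 ± 0.19 (adjusted p = 0.0281) that was lost without any 1 of wild-type vehicle animals 1 and 2, Atf6a-/- vehicle animals 1 and 2, wild-type TM animals 1 and 3 and Atf6a-/- TM animal 1 (adjusted p = 0.0591 to 0.0796). With arrays scaled to the spike-ins the falls of Nr1d1 and Nr1d2 were below the fold minimum (-0.51 and -0.34).

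Of 6 other genes of the D-box family and of clock repressors, 1 rose and 1 fell in the wild-type response and 1 rose and 2 fell in the Atf6a-/- response. Hlf, the remaining member of the family of Dbp and Tef, fell in both. Wild-type livers had 8.46, 8.23 and 8.31 after vehicle and 7.41, 7.23 and 7.38 after TM. Atf6a-/- livers had 8.38, 8.34 and 8.29 after vehicle and 5.59, 5.54 and 6.51 after TM. The wild-type TM livers were thus below all vehicle livers and above all Atf6a-/- TM livers. In wild-type livers Hlf fell by 1.00 ± 0.20 (adjusted p = 0.0117), and the fall was 2.46 ± 0.20 in Atf6a-/- livers (adjusted p = 2.61e-06), with an interaction of -1.46 ± 0.29 (adjusted p = 0.00691). Nfil3 encodes E4BP4, a repressor at the D-box. It was between 6.72 and 7.46 in the vehicle livers, and at 8.25, 10.94 and 9.44 in wild-type and at 9.92, 11.00 and 9.80 in Atf6a-/- livers after TM. The rise was 5.10-fold in wild-type livers (2.35 ± 0.53, adjusted p = 0.0205) and 9.93-fold in those of Atf6a-/- mice (3.31 ± 0.53, adjusted p = 4.49e-04), and the genotypes overlapped after TM (0.69 ± 0.53, adjusted p = 0.486), except without wild-type TM animal 2 (1.39, adjusted p = 0.0255). The wild-type rise was lost when animal 1 or 3 of the wild-type vehicle group or animal 3 of the TM group was left out (adjusted p = 0.0735, 0.0604 and 0.052). Ciart, which encodes the repressor CHRONO, fell by 0.73 ± 0.20 in the Atf6a-/- response (adjusted p = 0.0155), which was lost without animal 1 of the vehicle or the TM group (adjusted p = 0.069 and 0.0707) and with arrays scaled to the spike-ins (-0.24, adjusted p = 0.276). The wild-type fall of Hlf was lost under that scaling too (-0.68, adjusted p = 0.0553).

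**Figure D4:**
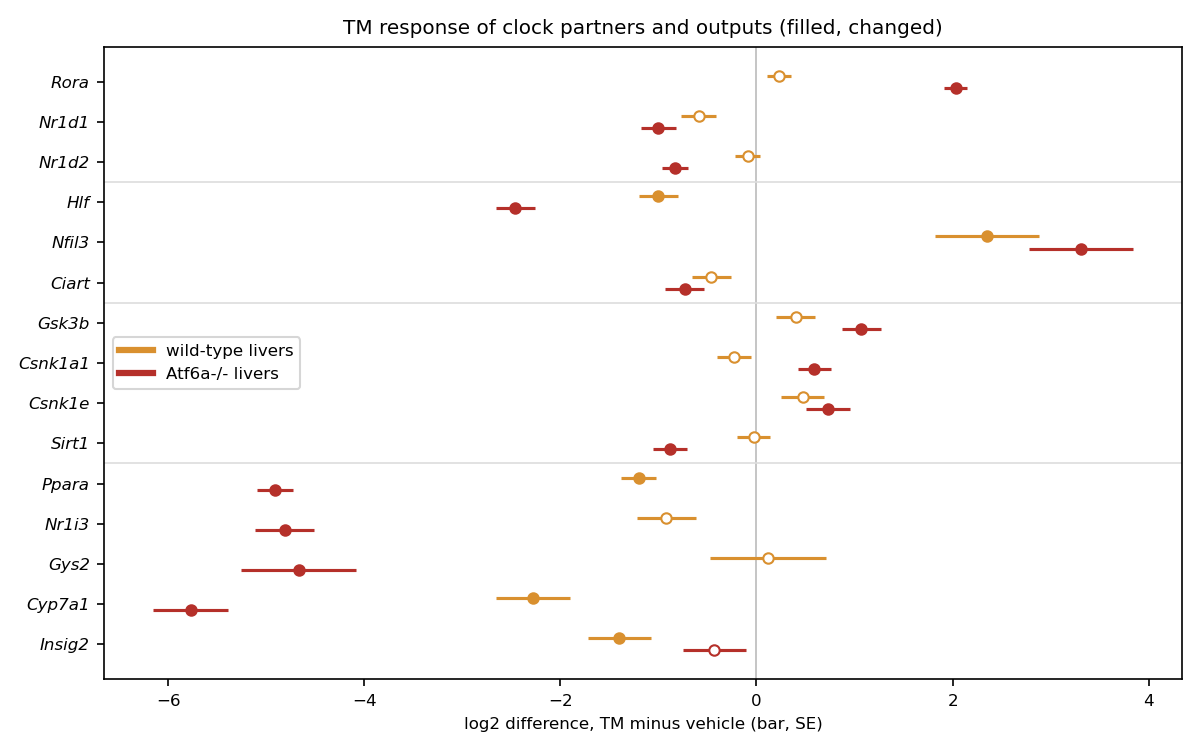
Log2 difference of TM minus vehicle (horizontal axis, bar for SE) in wild-type and Atf6a-/- livers for 15 genes of the clock's second loop, D-box family and repressors, kinases and deacetylase, and liver outputs, separated by lines, with filled points for genes called changed. Hlf, Nfil3, Ppara and Cyp7a1 changed in both genotypes, and Ppara fell by 1.20 where ATF6α was present and by 4.91 where it was not.

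The clock proteins are set in their stability by kinases, ubiquitin ligases and the deacetylase SIRT1. Of 10 such genes measured of 11 listed, 3 rose and 1 fell in the Atf6a-/- response (median 0.16), against 15.2% and 12.8% of all genes. In the wild-type response limma called 0, also at an unadjusted p under 0.05. Gsk3b, for a kinase that acts on several clock proteins, rose by 1.07 ± 0.20 in Atf6a-/- livers (adjusted p = 0.00128), and Csnk1a1 and Csnk1e, for casein kinases 1, rose by 0.59 ± 0.17 and 0.73 ± 0.22 (adjusted p = 0.0229 and 0.0266). Both casein kinase calls were lost without Atf6a-/- vehicle animal 3 or Atf6a-/- TM animal 3, Csnk1a1 also without animal 2 and Csnk1e also without animal 1 of either group (adjusted p = 0.0699 to 0.11), and all 3 kinase genes with arrays scaled to Btf3 and Ppia. With the mean of a gene's probe sets all 3 kinase calls were lost too, at 0.52 for Gsk3b, 0.40 for Csnk1e and 0.24 for Csnk1a1. Sirt1 was at 5.58, 5.87 and 5.52 in Atf6a-/- TM livers and between 6.10 and 6.82 in all others. It fell by 0.88 ± 0.17 (adjusted p = 0.00152) and passed the interaction (-0.85 ± 0.24, adjusted p = 0.0395), but the fall was lost with arrays scaled to the spike-ins (-0.38, adjusted p = 0.0838). The interaction was lost in 8 of the 12 fits with 1 animal left out, all but those without Atf6a-/- vehicle animal 3, wild-type TM animal 1 or 2 or Atf6a-/- TM animal 2 (adjusted p = 0.0649 to 0.0991).

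The genes listed as liver outputs of the clock, whose mRNA cycles under it, include metabolic genes and others such as Wee1 and Usp2. They fell the most of the 5 pathway lists by their median. Of 12 measured of 14 listed, 8 fell and 0 rose in the Atf6a-/- response (median -3.45), where 12.8% of all genes fell, and 3 fell and 0 rose in the wild-type response (median -0.70). At an unadjusted p under 0.05 limma passed 2 upward in the former and 0 in the latter. Many of them answer to other liver regulators as well. Ppara, the receptor that drives fatty acid oxidation, was at 6.24, 6.68 and 5.90 in Atf6a-/- TM livers, at 10.14, 9.92 and 10.31 in wild-type TM livers and between 11.10 and 11.52 after vehicle, so that the 3 levels did not overlap. The fall was 2.30-fold in wild-type livers (-1.20 ± 0.18, adjusted p = 0.0017) and 30-fold in those of Atf6a-/- mice (-4.91 ± 0.18, adjusted p = 8.44e-09). Nr1i3 encodes CAR, a receptor for drugs that lies under the control of DBP, TEF and HLF in mice. It was at 5.43, 4.87 and 5.58 in Atf6a-/- TM livers and between 8.95 and 10.73 in all others, and fell 28-fold in the Atf6a-/- response (-4.81 ± 0.30, adjusted p = 3.41e-07). Gys2, for liver glycogen synthase and a target of CLOCK in mice, was at 5.59, 4.76 and 7.91 in Atf6a-/- TM livers and between 10.11 and 11.25 in all others, with animal 3 again the nearest to them. Its Atf6a-/- response was -4.67 ± 0.59 (adjusted p = 7.30e-05) and its wild-type response 0.12 ± 0.59 (adjusted p = 0.956). Cyp7a1, the rate-limiting enzyme of bile acid synthesis, fell by 2.28 ± 0.38 in the wild-type response (adjusted p = 0.00351) and by 5.77 ± 0.38 in the Atf6a-/- response (adjusted p = 4.91e-07). Insig2, which restrains sterol synthesis, was called in wild-type livers (-1.40 ± 0.32, adjusted p = 0.0209), though not when animal 2 or 3 of the vehicle group or animal 1 or 3 of the TM group was left out (adjusted p = 0.0504 to 0.092). Its Atf6a-/- response was -0.43 ± 0.32 (adjusted p = 0.388). That difference between genotypes did not pass (interaction 0.97 ± 0.45, adjusted p = 0.24).

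Glucocorticoids are known to set the phase of the liver clock, so 6 genes that respond to them were read as well, and they did not move as one. In the Atf6a-/- response 1 rose and 2 fell (median -0.60). Sgk1, for a kinase, was at 10.87, 11.69 and 9.96 in Atf6a-/- TM livers and between 7.82 and 8.67 in all others, and rose by 2.91 ± 0.32 (adjusted p = 2.11e-05). Tsc22d3, for the leucine zipper protein GILZ, fell in the wild-type response (-1.44 ± 0.32, adjusted p = 0.0171) and in the Atf6a-/- response (-2.69 ± 0.32, adjusted p = 3.82e-05). The former was lost when leaving out animal 1 or 3 given vehicle or animal 2 or 3 given TM (adjusted p = 0.0512 to 0.0783). Klf9, which also cycles in liver, fell by 0.98 ± 0.21 in Atf6a-/- livers (adjusted p = 0.00338), though by only 0.49 and so below the fold minimum with arrays scaled to the spike-ins. Zbtb16 was lower there than in wild-type livers after TM (-1.35 ± 0.39, adjusted p = 0.0285), though not without any 1 of the wild-type TM animals or Atf6a-/- TM animals 2 and 3 (adjusted p = 0.0545 to 0.0875).

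Markers of other cell types moved with the groups. In whole liver, fewer cells of a type and less RNA per cell cannot be told apart. Of 4 neutrophil genes measured, 2 rose in the Atf6a-/- response and 1 in the wild-type response, and the log2 of their summed signal was 6.61 to 7.19 after vehicle, 7.97 to 8.97 in wild-type and 9.07 to 11.30 in Atf6a-/- livers after TM. S100a8, for an abundant protein of neutrophils, rose by 4.67 ± 0.44 in Atf6a-/- livers (adjusted p = 7.28e-06). Of 7 Kupffer cell genes, 2 rose and 4 fell in the Atf6a-/- response, Cd68 upward (3.07 ± 0.34, adjusted p = 2.64e-05) and Clec4f, which defines these cells in mice, downward (-1.76 ± 0.26, adjusted p = 2.15e-04). The log2 of the summed Kupffer signal was 11.49 to 12.07 after vehicle, 10.86 to 11.33 in wild-type and 11.27 to 11.61 in Atf6a-/- livers after TM. Of 5 hepatocyte genes, 3 fell there, and the log2 of their summed signal was 16.31 to 16.52 after vehicle, 15.85 to 16.16 in wild-type and 15.45 to 15.75 in Atf6a-/- livers after TM. Ttr, which encodes transthyretin, fell by 0.76 ± 0.10 in the Atf6a-/- response (adjusted p = 1.36e-04), and Alb, near the top of the arrays' scale, differed by -0.48 ± 0.10, below the fold minimum. Both depended on the scaling, and with arrays scaled to the spike-ins Ttr differed by -0.27 (adjusted p = 0.107) and Alb by 0.01, while with arrays scaled to Btf3 and Ppia Ttr differed by -1.28 and Alb was called as lower too. Of 6 endothelial and 5 stellate cell genes, 3 and 2 fell in the same response, as did 1 of 2 red cell genes. The medians of the endothelial and stellate lists there were -0.64 and 0.27. The log2 of the summed stellate signal was 11.70 to 12.17 after vehicle and 11.70 to 11.96 in Atf6a-/- livers after TM. None of 5 lymphocyte and 4 cholangiocyte genes was called in the Atf6a-/- response by limma, and 2 and 1 were lower at an unadjusted p under 0.05. The part of cell make-up in the clock genes' values was not tested.

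Some other genes had patterns much like those of clock genes over the 12 livers, by the mean absolute difference of gene-centred log2 levels among 3735 genes whose group means spanned at least 1. Nearest to Dbp were Hnmt at 0.14, Tmprss6 at 0.19 and Aqp11 at 0.24, where the group means of Dbp itself spanned 5.20. Nearest to Arntl were P3h1 at 0.23, Slc39a6 at 0.24 and Tceal9 at 0.25, and nearest to Per2 were Ptk2b at 0.16, Csrp2 at 0.17 and Asgr2 at 0.17. For Npas2, whose group means spanned 0.19, the nearest were Ttc17, Abca8b and Mknk1 at 0.29, 0.30 and 0.31, where the minimum span left out all genes as flat as Npas2. No other member of the clock stood among these nearest genes.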

How the data were processed

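Total liver RNA of 12 mice was labelled and hybridised to Affymetrix whole-genome mouse arrays, 1 per animal. The deposited log2 values were made by the authors with RMA, and the submitters' processing notes also list affy and limma, without versions. RMA sets the arrays to a common distribution, so a change shared by most genes cannot be seen. Of 45101 features, 64 controls were left out and 45037 tested, with no filter on dim probe sets. The values run from 2.38 to 14.91, and the number of arrays limits the precision. The platform table names 1 gene for 34945 probe sets, several for 932 and none for 9160.

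A mean for each of 4 groups was fitted by lmFit, contrasts.fit and eBayes of limma 3.58.1 (R 4.3.3), with two-sided tests and Benjamini-Hochberg adjustment over all probe sets of a comparison. The script was tested on simulated data. Tables and plots used Python 3.11.15 with numpy 2.4.6, pandas 2.3.3 and matplotlib 3.10.9. The members and lists were chosen with earlier results of these data known. Named genes were all members, Atf6, Nr1d1, Nr1d2, up to 3 changed genes of each pathway list with the largest difference in a comparison, and the 3 nearest patterns of Arntl, Npas2, Per2 and Dbp, and genes of the marker lists were named after their values were seen. No fold was given where the lower group was under the highest array median of 4.71. Animals of a group were separate mice, and no arrays were identical (highest correlation 0.995). Alternatives covered scaling, filter, variance model, probe set choice, test, covariate, pairing and single animals. Animal numbers were not taken to pair the samples.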

Additional observations from a re-analysis of the deposited data

Results flagged for a closer look

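The TM response differed between genotypes, by limma's interaction test over all probe sets, in 3 clock genes. The difference of the responses (Atf6a-/- minus wild-type) was -4.47 for Dbp (adjusted p = 9.74e-05), -1.72 for Per3 (adjusted p = 0.0092) and -0.90 for Tef (adjusted p = 0.0134). In each of these genes the Atf6a-/- livers fell and the wild-type response was not called.

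Among the named partners and outputs of the clock the same test was passed by Rora at 1.79 (adjusted p = 7.52e-05), Nr1d2 at -0.74 (adjusted p = 0.0281), Hlf at -1.46 (adjusted p = 0.00691) and Sirt1 at -0.85 (adjusted p = 0.0395). It was passed as well by Gys2 at -4.78 (adjusted p = 0.00356), Nr1i3 at -3.89 (adjusted p = 2.04e-04), Cyp7a1 at -3.49 (adjusted p = 0.00166), Ppara at -3.70 (adjusted p = 7.81e-06) and Sgk1 at 2.42 (adjusted p = 0.00477). Of all 12 outputs measured, 7 passed it, all downward. Atf6 passed at 1.75 (adjusted p = 3.90e-04), and the Kupffer cell gene Cd68 and the neutrophil gene S100a8 at 2.70 and 2.37 (adjusted p = 0.00416 and 0.0321). That of S100a8 was lost without any 1 of several animals (adjusted p = 0.0573 to 0.0822). These were wild-type vehicle animals 1, 2 and 3, Atf6a-/- vehicle animals 2 and 3, wild-type TM animal 3 and Atf6a-/- TM animals 1 and 3.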

How the results depend on the processing

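Over 26 alternatives, 1280 values of members were recomputed. None reversed, 24 lost and 17 gained a call, 386 were called under both settings and 853 under neither. Of the last, 41 had the other sign. Of 3968 values of the 31 named genes of the other lists and Atf6, none reversed, 149 lost and 75 gained a call. Scaling to the spike-ins moved the median of all probe sets by 0.32 in the wild-type and 0.49 in the Atf6a-/- response, by 0.23 and 0.06 between genotypes after TM and after vehicle and by 0.17 in the interaction, and gave 4493 and 17334 changed probe sets in the responses (2353 and 9480 as deposited), 1 clock gene higher in the wild-type response and 2 in the interaction. Scaling to Btf3 and Ppia moved the medians by -0.52, -0.43 and -0.44 in the Atf6a-/- response, the genotypes after TM and the interaction and gave 20714 and 11198 changed in the first and second (9480 and 6458 as deposited). The Ppia probe set also carries Gm9234. In the interaction, 1 clock gene was higher (0 as reported) after quantile normalization again, with dim probe sets left out, with an intensity trend, with the mean of a gene's probe sets and with animal number as a replicate block. Same-numbered animals did not deviate together in every pair (r from -0.094 to 0.373). The block changed no other member's call, with 3 higher and 4 lower in the Atf6a-/- response. Among the other named genes it lost the interaction of Sirt1 (adjusted p = 0.0638) and the wild-type rise of the Kupffer cell gene Marco (0.0516). It gained the interactions of Tsc22d3 (-1.26, adjusted p = 0.00821) and of the neutrophil gene S100a9 (0.0269). Also gained were the wild-type rise of S100a9 (0.0213) and the Atf6a-/- fall of Elovl3 (0.0424). The methods' t-test with adjustment called 1 probe set in the wild-type response, 1253 between genotypes after TM, with 0 clock genes higher and 1 lower, and 0 after vehicle, where 38 passed without adjustment. It gives no interaction, and the mean of a gene's probe sets gives no count of probe sets.

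With each animal left out in turn, clock genes higher numbered 0 to 1 in the wild-type response (1 without wild-type TM animal 1), 1 to 3 between genotypes after TM (1 without wild-type TM animal 1 or 3) and 0 to 3 in the interaction (3 without wild-type TM animal 2), and changed probe sets after vehicle 0 to 4. The phase index changed by 2.68 in the Atf6a-/- response, and by 2.12 with Cry1 among the opposite phase, 1.82 with the mean of a gene's probe sets and 4.08 with Arntl and Npas2 against Per3, Dbp and Tef, which gave 2.98 between genotypes after TM (2.09 as reported) and 3.12 in the interaction (2.13 as reported). Dim probe sets, such as those of Npas2, are limited by background signal.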

Other observations

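Elovl3, a fatty acid elongase gene that cycles in mouse liver, split the vehicle groups, a pattern seen after its values. It was at 6.21, 11.77 and 12.33 in wild-type and at 5.85, 12.40 and 11.39 in Atf6a-/- livers after vehicle, low in animal 1 of each, the animals with high Xist. After TM it was at 9.62, 9.08 and 9.41 in wild-type and at 4.77, 6.73 and 7.44 in Atf6a-/- livers, and its Atf6a-/- response of -3.57 ± 1.72 did not pass limma's test (adjusted p = 0.159), except without Atf6a-/- vehicle animal 1 (-5.58, adjusted p = 0.0155), with Xist as a covariate (-3.66, adjusted p = 0.00193), with animal number as a block (adjusted p = 0.0424) and with arrays scaled to Btf3 and Ppia (-4.08, adjusted p = 0.0225). Bhlhe40, for the clock repressor DEC1, was at 10.35, 9.33 and 9.98 and at 9.75, 9.63 and 9.07 after vehicle in wild-type and Atf6a-/- livers, and at 8.42, 9.55 and 8.98 and at 9.93, 8.95 and 9.67 after TM, and was called in no comparison. Fkbp5, a target of the glucocorticoid receptor, was at 9.85, 9.38 and 8.08 in Atf6a-/- vehicle livers, and its Atf6a-/- response was -0.62 ± 0.39 (adjusted p = 0.297) and -1.13 without Atf6a-/- vehicle animal 3 (adjusted p = 0.0161).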
